A study of Mus musculus with 2 samples.

Results

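Mir375, the gene of the microRNA miR-375, is 1 of 2202 annotated miRNA genes counted in small RNA of the mouse adrenal gland, and its row was read by gene identifier from each count table. By reads that map to a single place, it was among the most abundant miRNA genes of the gland. Scaled to miRNA reads, it was nearly level between the libraries. The samples were 2 adrenal gland libraries, biological replicates 2 and 1 of a single group, made from RNA shorter than 30 nucleotides. Both came from female B6CASTF1/J mice aged 25 days, F1 animals that carry a chromosome set of the wild-derived CAST strain beside that of a laboratory strain. The labels number the animals separately but give both the same donor identifier, and no contrast between conditions exists. The libraries held 3912280 (library 2) and 2244073 (library 1) reads on the strand of miRNA genes, which were 35.1% and 28.3% of all their reads.

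miR-375 is best known from the pancreatic islet, where it is among the most abundant miRNAs of insulin-producing cells, restrains insulin release and is needed for a normal mass of hormone cells in the mouse. It is also expressed in the pituitary and in other neuroendocrine cells and their tumours, and it has been studied in the adrenal cortex. The adrenal gland joins a steroid-producing cortex to a medulla of chromaffin cells, which are neuroendocrine and release catecholamines. The whole gland was sequenced, so the reads of Mir375 cannot be assigned to either part, and in such bulk RNA fewer cells of a type and less RNA per cell cannot be told apart.

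Mir375 (ENSMUSG00000065616.3) spans 64 bases, 74900658 to 74900721, on the minus strand of chromosome 1 (mm10, GENCODE M21). It lies between genes: no annotated gene overlaps it on either strand. On the same strand, the end of the cilia gene Cfap65 lies 1.35 kb upstream and the crystallin gene Cryba2 7.52 kb downstream, and the antisense transcript Gm15841 starts 1.65 kb away on the opposite strand. The nearest other miRNA gene, Gm27943, is 308.9 kb away, so Mir375 has no clustered partner among the annotated miRNA genes.

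The hairpin gives rise to miR-375-5p and miR-375-3p, and the counts are per gene and do not separate the arms. The mature sequences below are RefSeq's on GRCm38.p6, with the seed (bases 2 to 8, the part of a miRNA that pairs with its targets) in capitals. They are shown for Mir375 and for the miR-7 genes, the other best known islet miRNAs. The whole mature sequence, and not the seed, bears on how reliably each gene is counted.
mmu-miR-375-5p (Mir375): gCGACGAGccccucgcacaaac
mmu-miR-7a-5p (Mir7-1 and Mir7-2): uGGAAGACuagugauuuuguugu
mmu-miR-7b-5p (Mir7b): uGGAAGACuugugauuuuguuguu
The seed of miR-375-5p was shared by 0 of the other mature miRNAs among 1738 listed, whereas the miR-7 genes share theirs. No mature sequence of miR-375-3p was listed, so the seed comparison for Mir375 covers the 5p arm alone. The 3p arm and its seed were not examined. Which arm gave the reads of Mir375 is not known from these counts, so the sequence shown may not be its main product. The sequence of miR-7a-5p is the same from Mir7-1 and Mir7-2, and the tables count no read that maps to more than a single place. No stretch of 20 bases of the Mir375 hairpin was found in another miRNA gene, while 1087 of the 2202 miRNA genes had such a stretch. None was found in the 141766 other annotated transcripts either. The genome outside annotated transcripts was not searched.

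The Mir375 hairpin is also unusually rich in G and C. Its G and C content was 67.2%, against a median of 51.7% over 1005 mouse hairpins, and 94.6% of them were lower. It holds 10 CG dinucleotides, against a median of 1. Among the 22 hairpins found for the 25 most abundant genes, the next highest held 6 (Mir126a and Mirlet7e).

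Mir375 had 143037 reads in library 2 and 84318 in library 1. Scaled to the miRNA reads of each library (normalised read count, CPM), its level was 36561 CPM in library 2 and 37574 CPM in library 1. The values lay within a few percent of each other, with a mean of 37067 ± 716 CPM (SD, n = 2), an SD of 1.93% of the mean. Mir375 took 3.66% of miRNA reads in library 2 (95% Wilson interval 3.64 to 3.67%) and 3.76% in library 1 (3.73 to 3.78%). The intervals cover counting error only, as copies made by PCR cannot be told from separate molecules. No spread between animals beyond these 2 values is known, and it holds dissection and library preparation as well. Over the 337 detected genes, those with at least 10 reads in both libraries, the median SD was 22.3% of the mean, and over the 25 most abundant genes it was 25.4%. Within those 25, only Mir652 had a smaller relative SD on this scale.

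On the opposite strand Mir375 had 0 reads in both libraries. Set at 3 reads, the upper limit was 0.0021% of its own reads in library 2 and 0.00356% in library 1. The unstranded counts of the gene were therefore identical to the stranded ones.

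In the order of levels Mir375 was 8th of 2202 in library 2 and 8th in library 1, and 7 by the mean of both. Reads that map to more than a single place, 27.5% of all reads in library 2 and 28.4% in library 1, are not counted. Genes with copies, such as Mirlet7a-1 (mean 443 CPM) and Mir26a-1 (mean 7.65 CPM), may therefore stand too low. The standing and the share of Mir375 may be overstated for that reason. The mean level of Mir375 was 238 times the median of the detected genes, 156 CPM. Levels of different genes are read counts of mature products of similar length and were not scaled by length, and how well each sequence is captured in a library was not measured. Above Mir375 in both libraries were 6 genes: Mirlet7g, Mir126a, Mirlet7b, Mir10a, Mirlet7i and Mir378a. Mir378a, which lies in the mitochondrial regulator gene Ppargc1b, was the closest of them, with 39631 CPM in library 2 and 48306 CPM in library 1. Its range did not overlap that of Mir375, but its count is uncertain, since 20 or more bases in a row recur in another miRNA gene.

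Mir143 and Mir22 changed sides with the library. Mir143, a miRNA of smooth muscle, was above Mir375 in library 2 with 40553 CPM and below it in library 1 with 27293 CPM. Mir22, a broadly expressed miRNA, was below it in library 2 with 11830 CPM and above it in library 1 with 44951 CPM. The ranges of both overlapped that of Mir375, so neither neighbour differs from it beyond the spread between libraries. Mir23b was below Mir375 in both, with 27236 CPM in library 2 and 34158 CPM in library 1.

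**Figure D1:**
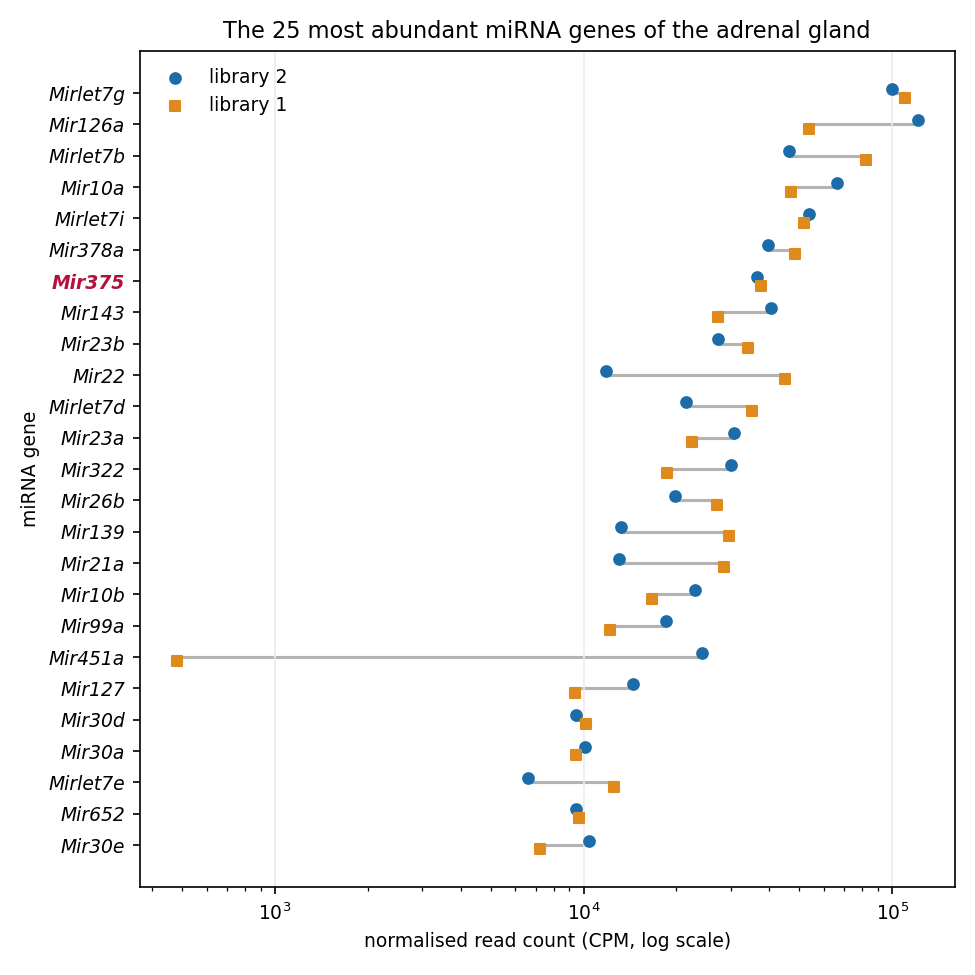
Normalised read counts (CPM, log scale) of the 25 most abundant miRNA genes, ordered by mean, with library 2 as blue circles, library 1 as orange squares and a grey line between them. Mir375 sits at 36561 and 37574 CPM with nearly coinciding points, while Mir22 and Mir451a are spread widely.

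How far Mir375 differed between the libraries depended on the scaling more than on counting error. With TMM scaling, which aligns the libraries on the bulk of genes, the log2 ratio of library 2 over library 1 was 0.05, a 1.03-fold difference, with a 95% counting interval from 0.03 to 0.06. The two-sided exact binomial test, which compares these 2 libraries and not conditions, gave an adjusted p of 3.59e-13 (Benjamini-Hochberg over 411 genes tested). At this depth 240 genes, 58.4% of those tested, passed the same threshold of 0.05, so the call alone does not set Mir375 apart.

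The sign of the ratio turned with scaling by library size alone (-0.04) and by the upper quartile (-0.03). It stayed positive under the other alternatives, with 0.11 from DESeq2 size factors, 0.13 among genes with at least 100 reads in both libraries, 0.21 with no filter on low counts and 0.27 when scaled to all reads of the library, unmapped reads included. The range over the 11 settings, 0.31, was wider than the 0.025 of the counting interval. No direction of Mir375 between the libraries is therefore claimed. Its size was small under TMM: of the 337 detected genes, 16 had a ratio closer to 0, against a median absolute log2 ratio of 0.47. Across settings that number lay between 8 and 106.

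**Figure D2:**
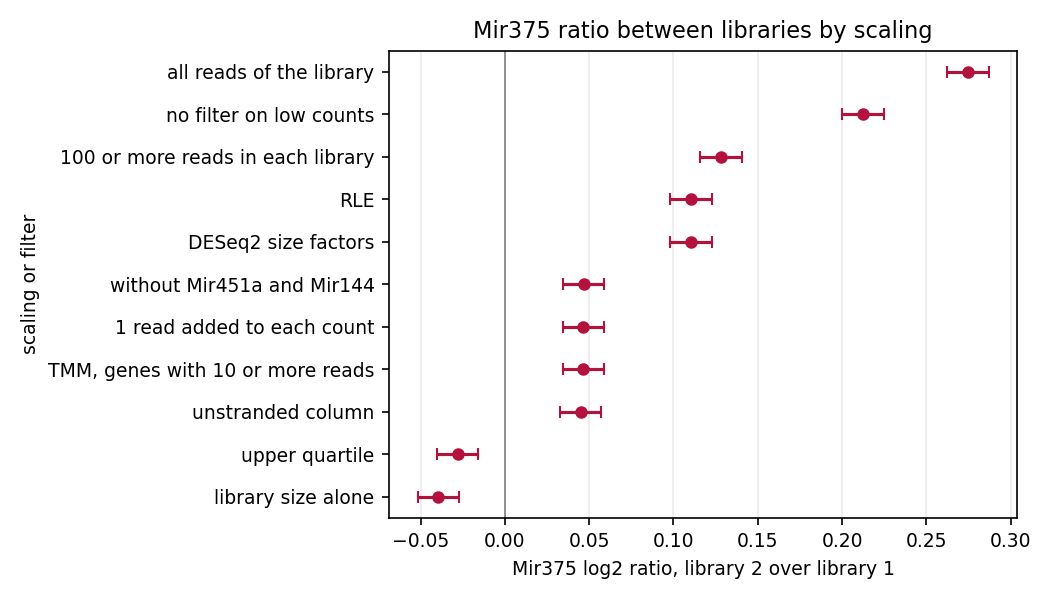
Log2 ratio of Mir375, library 2 over library 1, under each scaling or filter, with 95% counting intervals as bars. The points run from -0.04 to 0.27 and lie on both sides of 0, while each bar spans 0.025.

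A comparison that needs no scaling set the reads of Mir375 against those of each of the other 24 most abundant genes in the same library. Relative to them Mir375 was higher in library 2 for 11 genes and higher in library 1 for 13, with a median log2 change of -0.05. It moved least against Mir652, a broadly expressed miRNA, with 3.86 reads of Mir375 per read in library 2 and 3.89 in library 1. It also stayed within 0.1 on the log2 scale of Mir30d and Mirlet7i. The widest moves were against Mir451a, the miRNA of red blood cell maturation (1.51 reads per read in library 2 and 78.2 in library 1), and Mir22 (3.09 in library 2 and 0.836 in library 1).

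The genes most like Mir375, by the Euclidean distance of log2 CPM over the 2 libraries, were Mir378a (0.38), Mir23b (0.45), Mir143 (0.48), Mirlet7i (0.72), Mirlet7d (0.78) and Mir23a (0.78). With 2 values per gene this measures little more than abundance. Mir378a, Mir23b and Mir23a share stretches of 20 bases with other miRNA genes.

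Among miRNA genes known from endocrine and neuroendocrine cells, Mir375 stood far above the rest. It made up 82.1% of the reads of a list of 19 such genes in library 2 and 86.9% in library 1, and had 4.59 and 6.61 times the summed level of the other 18. Mir7b, a gene of the miR-7 family found in islets and neurons, came next, with 5543 CPM in library 2 and 3921 CPM in library 1. Mir182 had 744 CPM in library 2 and 561 CPM in library 1. Its cluster partner Mir183 had 249 CPM in library 2 and 329 CPM in library 1, and Mir96 of the same cluster had 23.0 CPM in library 2 and 15.6 CPM in library 1. Mir137, a miRNA of neural differentiation, had 794 CPM in library 2 and 421 CPM in library 1.

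The remaining listed genes were each below Mir137. Mir7-1 had 335 CPM in library 2 and 262 CPM in library 1, a count made uncertain by its shared mature sequence. Mir7-2, Mir184, Mir129-2, Mir204, Mir153 and Mir129-1 ranged from 8.18 to 104 CPM in library 2 and from 7.13 to 57.5 CPM in library 1. The neuronal genes of miR-124 (Mir124a-1, Mir124a-2 and Mir124a-3) had no read, and those of miR-9 had 1 read in each library. All 6 of these share stretches of 20 bases with their copies, so reads of theirs may have gone uncounted. Of the 19 genes, 10 have such a stretch, so the share of Mir375 in this list and its excess over the other genes may be overstated.

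**Figure D3:**
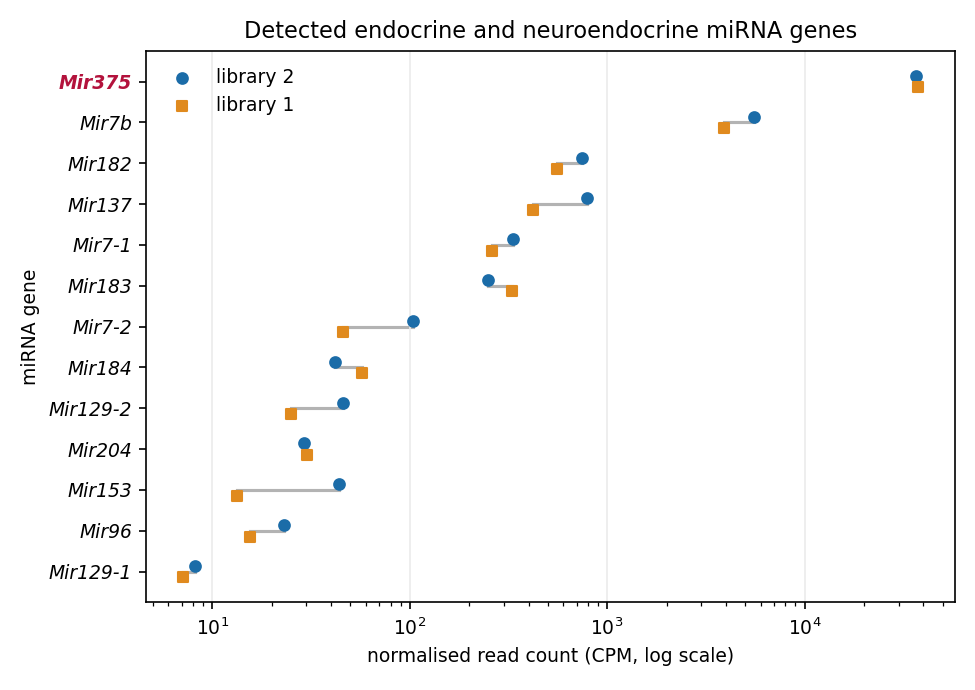
Normalised read counts (CPM, log scale) of the 13 detected genes of the endocrine and neuroendocrine list, with library 2 as blue circles and library 1 as orange squares. Mir375 lies well to the right of Mir7b, at 4732 CPM on average, and of the others, the next of which is Mir182 at 652 CPM.

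Between the libraries, most genes of that list had wider ratios than Mir375, and Mir204 was closer to even (log2 ratio 0.03). Of the 13 tested, 9 passed the exact binomial test as higher in library 2, Mir375 among them, and 1, Mir183, as higher in library 1. Over all genes tested, 29.4% were called higher in library 2 and 29.0% in library 1. With scaling by library size the list's counts were 7 and 3, where 103 and 137 of the 411 genes tested were called. Under that scaling Mir375 was among those called higher in library 1. The median log2 ratio of the 13 was 0.49, against -0.07 for all genes tested. With a fold of 1.5 also required, 6 were higher in library 2 and 0 in library 1. Of all genes tested 31.4% passed that limit, 15.1% as higher in library 2 and 16.3% in library 1. Mir7b lay just inside it, with a log2 ratio of 0.59. Mir137 was 2.00-fold and Mir153 3.42-fold higher in library 2, and both stayed positive under all settings that tested them. An earlier look at these data had already shown the direction of these genes, so the count is not independent evidence.

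**Figure D4:**
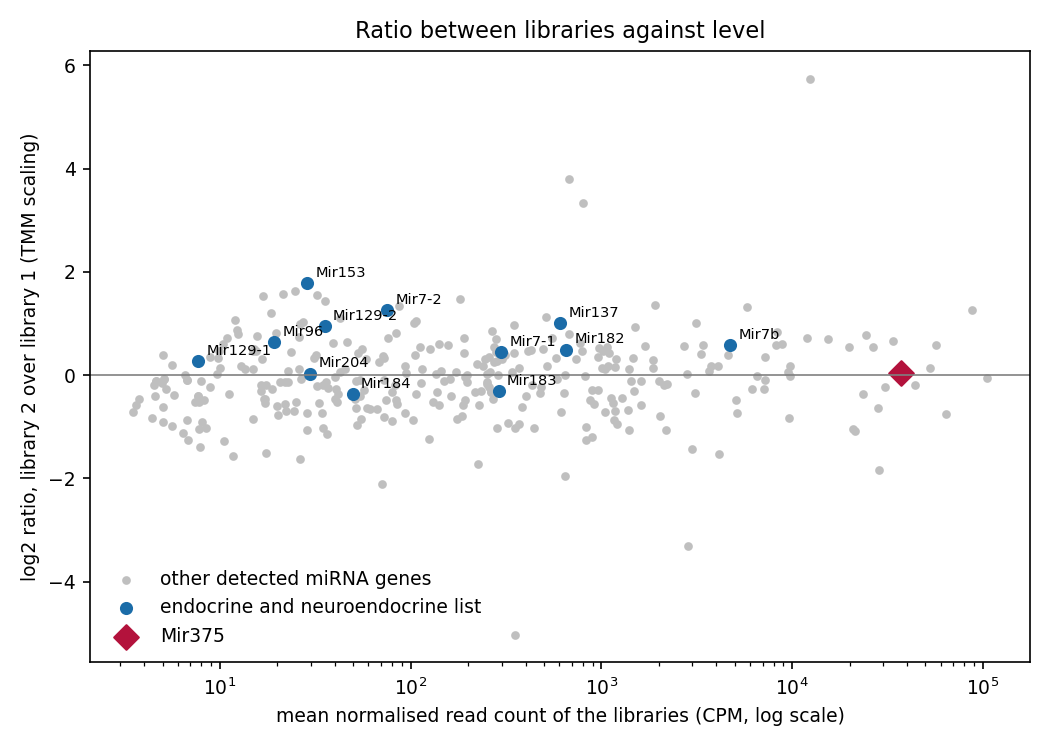
Log2 ratio of library 2 over library 1 (TMM scaling) against mean CPM (log scale) for the 337 detected miRNA genes in grey, the endocrine and neuroendocrine list in blue and Mir375 as a red diamond. Mir375 lies near 0 at the right, at 0.05, while most listed genes lie above 0, up to 1.78 for Mir153.

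In a list of 26 miRNA genes studied in the adrenal cortex or in steroidogenic cells, Mir375 again had the most counted reads, ahead of Mir139, Mir21a and Mir10b. It made up 37.5% of that list's reads in library 2 and 28.5% in library 1. Reads of 6 listed genes with recurring bases, among them Mir24-2 and Mir125b-1, may have gone uncounted, so order and share may favour Mir375. The share moved while the level of Mir375 itself stayed close to even. Mir139, which lies in the phosphodiesterase gene Pde2a, had 13251 CPM in library 2 and 29641 CPM in library 1. Mir21a, a widely expressed miRNA raised in many growing tissues, had 13002 CPM in library 2 and 28487 CPM in library 1. Mir10b, of the Hoxd cluster, had 22902 CPM in library 2 and 16675 CPM in library 1. Mir125a, which represses a cholesterol uptake receptor in rodent steroidogenic cells, had 2038 CPM in library 2 and 6241 CPM in library 1.

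All 26 of these genes were detected, and 6 hold 20 bases in a row that recur elsewhere among miRNA genes. In the exact test 7, Mir375 among them, passed as higher in library 2 and 17 as higher in library 1, beside 29.4% and 29.0% of all genes tested. The median log2 ratio was -0.48. With scaling by library size the counts were 2 and 18, where 103 and 137 of the 411 genes tested were called. There Mir375 passed as higher in library 1. With a fold of 1.5, 1 was higher in library 2 and 11 in library 1, beside 15.1% and 16.3% of all genes tested. This list too was chosen with earlier results of these data known, so its counts are not independent evidence. Mir132, a miRNA induced by cyclic AMP signalling, had 524 CPM in library 2 and 1270.5 CPM in library 1, whereas its cluster partner Mir212 had 42.4 and 43.2 CPM, with an adjusted p of 0.869 in the exact test.

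Markers of other tissues that could bring Mir375 or dilute it were read in the same libraries. The exocrine pancreas genes Mir216a, Mir216b and Mir217 had 4 reads in all in library 2 and 4 in library 1, and Mir216b had none. The 5 epithelial genes of the miR-200 family had 184 reads in library 2 and 135 in library 1, so that Mir375 had 777 and 625 reads for each of theirs. The epithelial list of 8 genes held 0.273% of the miRNA reads in library 2 and 0.372% in library 1, mostly from Mir31 and Mir203, and all 8 had reads.

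Marker genes of several other cell types differed between the libraries by more than Mir375. The erythroid list (Mir451a, Mir144 and Mir486) held 2.57% of miRNA reads in library 2 and 0.068% in library 1. Most of these reads were those of Mir451a, and Mir486 went the other way, with 22.0 CPM in library 2 and 47.7 CPM in library 1. Mir122, the main miRNA of hepatocytes, held 0.0491% in library 2 and 0.518% in library 1. Mir126a of endothelium held 12.1% in library 2 and 5.38% in library 1, and the 5 genes of smooth muscle and fibroblasts 4.18% in library 2 and 2.89% in library 1. Nearly all reads of the smooth muscle list were those of Mir143. In that list Mir214 had 449 CPM in library 2 and 781 CPM in library 1, and Mir145a had 789 CPM in library 2 and 847 CPM in library 1. The part of these cell types in the level of Mir375 was not tested. Without Mir451a and Mir144 the log2 ratio of Mir375 was 0.05, as with them. TMM scaling already sets aside genes with extreme ratios, so this could hardly have come out otherwise. It shows nothing about the part of blood cells.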

How the data were processed

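Per the labels, the genome build was mm10 for both libraries, and the accompanying deposited text names GENCODE M21. The authors deposited raw read counts per miRNA gene, not normalized and not pooled. The aligner was not given in the sources used here, nor was the counter. The tables hold an unstranded column and 2 stranded ones. The stranded column with the larger total was taken as the strand of the gene, as inferred from the values. All 2202 identifiers matched M21.

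Rows naming no gene were left out. In library 2 and library 1, unmapped reads made up 27.8% and 33.8%, multimapped reads 27.5% and 28.4%, and reads that fell outside miRNA genes 9.53% and 9.57%. Mapping to the reference can lose reads that carry CAST variants.

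CPM used the miRNA reads on the gene strand. Genes with 10 or more reads summed entered a two-sided exact binomial test on edgeR's TMM effective sizes, adjusted by Benjamini and Hochberg at 0.05. With 1 group, a quasi-likelihood test has no coefficient. Log2 ratios added 0.5 read. The test was checked on simulated data. The simulated counts held counting error only, so the check does not cover spread between animals. Mir375, the lists and the alternatives were chosen with earlier results of these data known. Named genes are Mir375, the 3 genes above and below it by mean CPM, the 6 most alike, up to 6 of each list by level, and annotated neighbours. Those named outside this rule, among them Mir652, Mir30d, Mir132, Mir212, Mir153, Mir96 and the genes with no or few reads, were chosen after their values were seen. Tools were edgeR 4.0.16 and DESeq2 1.42.0 under R 4.3.3, and scipy 1.17.1, statsmodels 0.14.6, numpy 2.4.6, pandas 2.3.3 and matplotlib 3.10.9 under Python 3.11.15.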

Additional observations from a re-analysis of the deposited data

How the results depend on the processing

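The level of Mir375, 37067 CPM or 3.71% of miRNA reads, moved with the denominator. It was 44962 CPM (4.50%) in the unstranded counts, where genes with a partner on the other strand lose reads, 43294 CPM (4.33%) among miRNA genes that share no 20 bases, and 11735 CPM (1.17%) of all reads. Its rank by mean CPM, 7, became 5 in the unstranded counts and 6 among genes sharing no 20 bases. With 1 library left out, the level ranged from 36561 to 37574 CPM, the share from 3.66 to 3.76% and the rank was 8 either way. The log2 ratio of 0.05 turned to -0.039 with library size alone and -0.028 with the upper quartile (adjusted p from 1.07e-09 to 1.91e-05, exact binomial test). Against the main setting, these scalings shifted all log2 ratios by -0.086 and -0.0746. Why the scalings differ was not tested. Leaving out the filter on low counts shifted all log2 ratios by 0.17, and scaling to all reads by 0.23. A fold of 1.5 reduced the 240 genes called to 129 and the 10 of the endocrine list to 6, by construction. Of 32 alternatives, the other 18 kept direction and side of the threshold, or stayed within the spread. No paired analysis was possible because the samples form 1 group. With 2 libraries, the spread between animals is poorly known.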

Other observations

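Among detected miRNA genes whose hairpin sequence was found, Mir375 was the most abundant with a hairpin as rich in CG dinucleotides as its own. Of 291 detected genes whose hairpin sequence was found, 10 held as many CG dinucleotides as the 10 of Mir375 or more, Mir375 included, and so did 23 of all 1005 hairpins (2.29%). The other 9 were far less abundant. Mir341, an imprinted gene of the Dlk1-Dio3 locus, led them with 675 CPM in library 2 and 433 CPM in library 1, and Mir375 had 66.9 times its mean level. Mir6538 had 99.9 CPM in library 2 and 352 CPM in library 1, and Mir1247 49.8 and 83.8 CPM. These genes were chosen after their values were seen, and how base composition bears on capture in these libraries was not tested.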
